A study of Mus musculus with 5 samples.

Results

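The promoters of long intergenic noncoding RNA (lincRNA) genes were described in female mouse embryonic fibroblasts (MEFs) by enhanced reduced representation bisulphite sequencing (eRRBS), which cuts DNA with MspI, converts unmethylated cytosines with bisulphite and reads mostly CpG-rich fragments. A promoter position was a called CpG cytosine on chromosomes 1 to 19 within 1 kb of the transcription start site (TSS) of a GENCODE M21 lincRNA gene and more than 2 kb from every protein-coding TSS, with at least 10 calls in each of the 5 libraries on the allele described. Positions in 1 window of chromosome 12 and 1 of chromosome 4 were left out. This gave 2030 of 162007 covered autosomal positions on the domesticus allele and 2104 of 167622 on the castaneus allele, of which 1050 were covered on both. They were nearest to 361 and 405 of the 5209 autosomal lincRNA genes of the annotation, and 207 and 226 promoters held at least 3 positions and were tested. Each position was assigned to its nearest lincRNA TSS, and lincRNA genes that are nearest to none are described only where they share a promoter window with another.

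All MEFs came from E13.5 embryos of 129/C57 dams and CAST sires, carried Xist-deltaA/+ and were transduced with retrovirus and selected with puromycin. The study's legends call these cells 129/CAST. Whether the domesticus allele of a promoter was 129 or C57 in each library was not tested. The Female control group held 3 libraries of Setdb1+/+ cells with a Nonsilencing hairpin. The Setdb1 depleted group held 2 libraries of Setdb1+/gt cells with shSetdb1, so that genotype and hairpin differed together and their parts cannot be told apart. The level of Setdb1 was not measured by these libraries. The labels do not say whether replicates were separate embryos, so that no p-value can be taken to measure the spread between embryos. Permutation p-values rest on the spread between these libraries. Those of the quasi-binomial and limma models below rest in part on a spread shared over all promoters or positions, and are no measure of 1 promoter's own spread. Only 1 direction of the cross was read, so strain and parent of origin cannot be told apart. At Zrsr1, an imprinted gene methylated on the maternal copy, mC was 93.1 to 97.3% on the domesticus allele and 1.23 to 5.74% on the castaneus allele. Each library gave 9440874 to 10558931 CpG calls per allele, and the median lincRNA promoter position had 44 to 50 calls per library. Of marker gene lists, promoters of 4 of 10 fibroblast, 2 of 4 epithelial, 1 of 4 endothelial and 1 of 4 blood genes were covered, all between 0.0333 and 8.58% mC, and the markers of the 4 cell types were thus alike in being low.

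A lincRNA is a transcript with no long reading frame, made from a gene that as a rule does not overlap a protein-coding one. Some of these RNAs act in the nucleus on chromatin or nuclear bodies, some carry snoRNAs or microRNAs in their introns, and for many no role is known. As at coding genes, a promoter in a CpG island is usually free of DNA methylation, while CpG-poor promoters can carry it. Setdb1 is a histone H3K9 methyltransferase known for silencing repeats and some genes, in part together with DNA methylation. The level given below, mC, is the percentage of calls at a position that were methylated, averaged over positions with equal weight. A level on 1 allele is over the positions covered on that allele, so levels set side by side for the alleles cover partly different positions and compare the alleles only where shared positions are named.

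Short stretches of 8 promoters show what the calls were read from. All are of the plus strand of GRCm38.p6 and at most 150 bases long, and the capitals mark the CpGs that were called. The first 5 had the largest differences between the alleles, the next 2 were among the largest differences between the groups on 1 allele (Gm26868 on domesticus, Gm807 on castaneus), and the last was the promoter with the most positions over both alleles.
1700048O20Rik/Gm49343, chr9:121938107-121938179: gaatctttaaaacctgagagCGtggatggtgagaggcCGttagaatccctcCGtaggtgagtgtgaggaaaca
Gm2511, chr7:43518558-43518609: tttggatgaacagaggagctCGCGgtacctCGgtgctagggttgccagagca
Gm49736, chr16:31412506-31412597: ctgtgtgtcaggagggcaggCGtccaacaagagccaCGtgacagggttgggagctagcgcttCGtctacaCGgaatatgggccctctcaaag
Gm47733, chr12:25871373-25871468: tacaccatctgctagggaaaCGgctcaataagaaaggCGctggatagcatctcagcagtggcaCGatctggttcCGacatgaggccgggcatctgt
Gm20619, chr6:6299349-6299455: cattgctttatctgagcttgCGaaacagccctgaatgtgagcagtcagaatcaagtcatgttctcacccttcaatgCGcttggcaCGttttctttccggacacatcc
Gm26868, chr9:56606441-56606540: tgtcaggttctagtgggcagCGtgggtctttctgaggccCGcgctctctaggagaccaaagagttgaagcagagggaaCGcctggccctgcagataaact
Gm807, chr13:99100570-99100663: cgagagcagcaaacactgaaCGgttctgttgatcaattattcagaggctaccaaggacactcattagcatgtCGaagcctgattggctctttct
5430416N02Rik, chr5:100429661-100429810: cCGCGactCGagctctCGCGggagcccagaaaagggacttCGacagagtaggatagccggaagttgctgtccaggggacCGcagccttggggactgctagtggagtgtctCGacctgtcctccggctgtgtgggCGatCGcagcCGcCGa

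The first 7 stretches hold 2 to 4 called CpGs each and the last holds 12. Every position of the 5430416N02Rik stretch averaged at most 0.625% mC on either allele over the 5 libraries. At 1700048O20Rik/Gm49343 the 3 CpGs averaged 40.9 ± 15.9, 35 ± 15.3 and 36.5 ± 15.5% on the domesticus allele and 85.8 ± 6.12, 75.6 ± 5.53 and 84.3 ± 2.42% on the castaneus allele (SD, n = 5 libraries). All 3 CpGs of that stretch were higher on the castaneus allele. At Gm20619 the third CpG differed from the others, with 17.1 ± 9.15% on the domesticus allele, where the means of the other 4 positions were between 55 and 61.2%.

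Mean mC over the lincRNA promoter positions was 22.4 ± 0.364% on domesticus and 24.1% on castaneus (mean of 5 libraries). Domesticus mC was 22.3, 23.1 and 22.1% in Female control replicates 1 to 3 and 22.2 and 22.5% in Setdb1 depleted replicates 1 and 2. Castaneus mC was 23.8, 24.4 and 23.8% (control) and 24.04 and 24.4% (depleted). The groups overlapped on both alleles. Inside CpG islands, which held 1105 and 1108 of the positions, mC was 1.49 ± 0.157 and 1.74% on the domesticus and castaneus alleles. Outside islands it was 47.5 ± 0.803 and 48.9%. The 111 and 102 positions in repeats that are soft-masked in the reference had 45.0 and 57.8%.

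The lincRNA promoters lay between protein-coding promoters and intergenic CpGs, as the plot of levels by class shows. Protein-coding promoter positions, those within 1 kb of a protein-coding TSS, averaged 3.53% and 3.43%. The lincRNA promoters were 18.9 ± 0.318 and 20.7 ± 0.295 points higher, in 5 of 5 libraries on each allele, with an exact two-sided sign-flip permutation p of 0.063, the smallest that 5 libraries allow. The size depended on which positions were read: with at least 40 calls it was 9.91 and 12 points, and averaged over promoters 33.1 and 33.6 points. Inside islands this difference was 0.393 ± 0.133 and 0.688 ± 0.110 points, again in 5 of 5 libraries (exact permutation p = 0.063 on each allele). The libraries read the same positions, so these p-values and library counts do not measure the spread between promoters. Of the 59 and 62 lincRNA promoters wholly in islands, 2 on each allele were over 20% mC. Their part in the difference inside islands was not tested. Outside islands the lincRNA minus protein-coding difference was 27.2 ± 0.606 and 28.5 ± 0.557 points. Protein-coding positions were in islands in 87.3 and 87.8% of cases and lincRNA positions in 54.4 and 52.7%. Promoters of antisense RNA genes had 33.7 and 35.1%, and lincRNA minus antisense was -11.2 ± 0.320 and -11 ± 0.504 points, below 0 in each library. Intergenic CpGs had 63.4 and 61.7%, and lincRNA minus intergenic was -41 ± 0.165 and -37.6 ± 0.214 points.

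**Figure D1:**
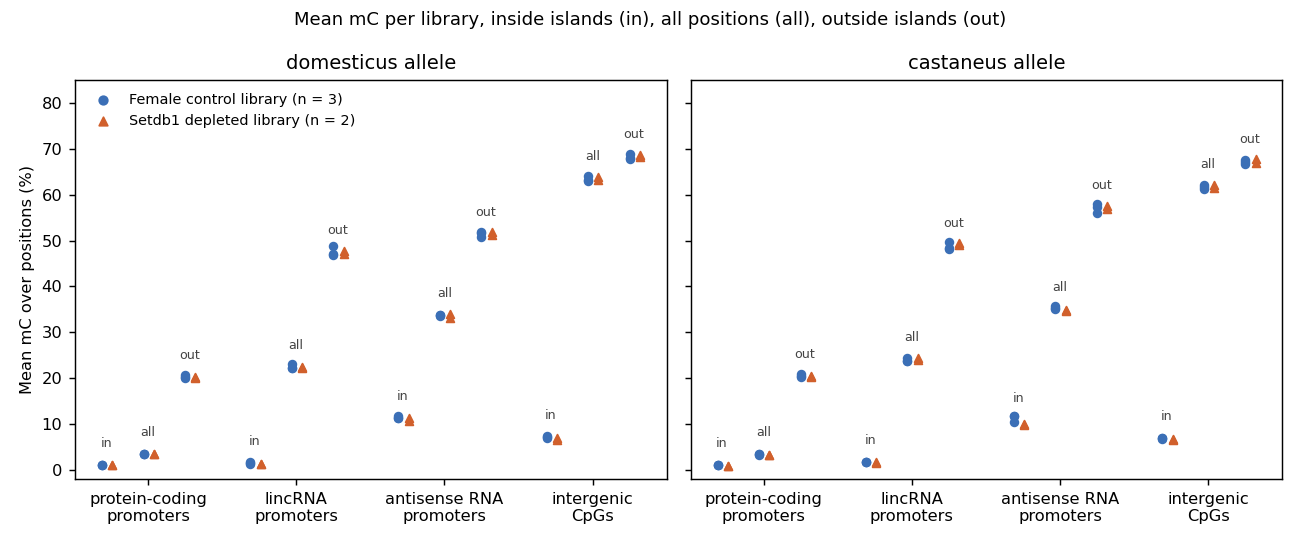
Mean mC (%) over positions in each library for 4 classes of CpG position, inside CpG islands, over all positions and outside islands, on the domesticus and castaneus alleles. Circles are the 3 Female control and triangles the 2 Setdb1 depleted libraries: lincRNA promoters sit at 22.1 to 23.1% on the domesticus allele, above protein-coding promoters and below intergenic CpGs, and their control and depleted libraries overlap over all positions.

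Single promoters were mostly either low or high. Under 5% mC were 91 of 207 promoters on the domesticus allele and 99 of 226 on the castaneus allele, and over 80% were 43 and 60. Between 20 and 80% were 50 and 43. By position, 63.3 and 61.2% of lincRNA positions were under 5%, against 92.4 and 92.6% of protein-coding positions, and 3.00 and 3.42% were over 95%. The median promoter had 7.92 and 8.29% mC, beside 0.320 and 0.299% over all promoters tested. Promoter mC was lower where CpGs were dense, with a Spearman rho of -0.68 over the 207 and -0.72 over the 226 promoters. This is a description across promoters, which share their libraries. The median density was 7.17 CpGs per 100 bp in the promoters under 5% on the domesticus allele and 3.51 in those over 80%. All 43 promoters over 80% on the domesticus allele held no island position, and on the castaneus allele 59 of 60 held none. Low mC was not limited to islands as computed here, where repeat bases did not count: 23 of the 91 and 27 of the 99 promoters under 5% had no position in an island.

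**Figure D2:**
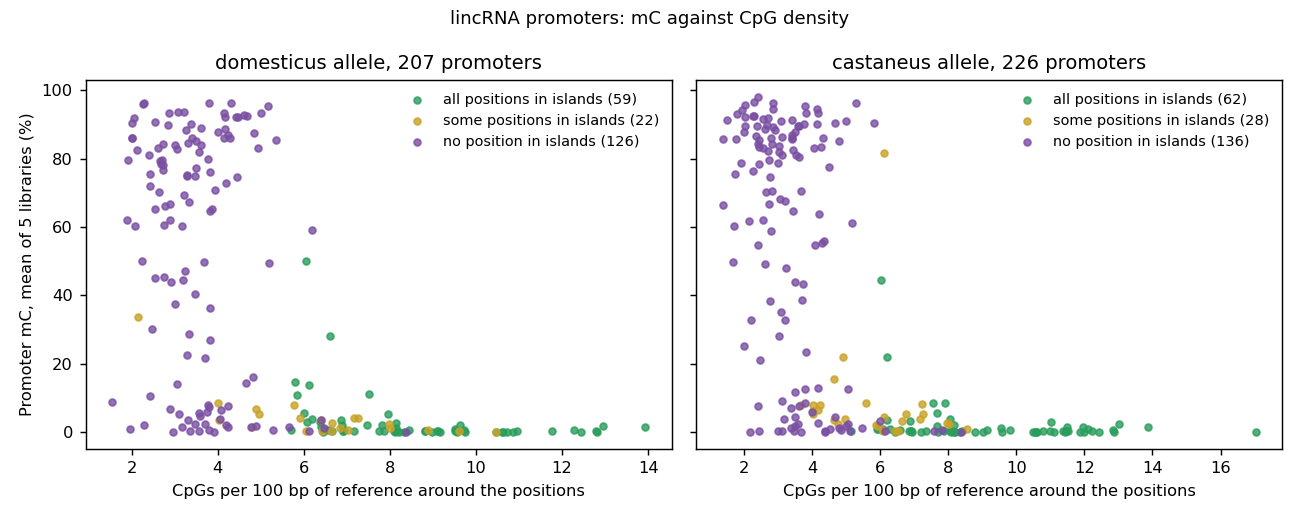
Promoter mC (%), the mean of 5 libraries, against the number of CpGs per 100 bp of reference sequence, for the 207 and 226 tested lincRNA promoters. Colours give the share of positions in CpG islands: the promoters wholly in islands are mostly under 5% (51 of 59 and 57 of 62), with 2 over 20% on each allele, and promoters with few CpGs span the axis.

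The promoters with the most positions were mostly near 0. 5430416N02Rik had 46 positions on domesticus and 43 on castaneus, with 0.0283 ± 0.0348 and 0.0338 ± 0.0551% mC over 2351 to 3071 calls per library. Gm45605 had 0.178 and 0.0869% over 39 and 25 positions, 4632415L05Rik 0.164 and 0.248% over 38 and 23, and Gm48623 0.228 and 0.179% over 39 and 37. Gm42555, which lies within the coding gene Fbxl5, was higher, with 5.16 and 3.81% over 31 and 42 positions. Epb41l4aos, a snoRNA host, had 1.11 and 2.31% over 30 and 25. Among promoters with at least 10 positions on each allele the lowest also included Pvt1 and C030034I22Rik, the latter with 0.0925 and 0.0604%. The highest of these were 2600014E21Rik/Gm13652 with 6.76% on domesticus and 21.9% on castaneus (9.56 and 13.1% on the 7 shared positions, without a called difference), Gm47430 with 14.3 and 4.52%, and 6330420H09Rik/Gm45241 with 8.62 and 6.29%. None of the promoters with that many positions on both alleles was over 22% on either.

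Over all positions, levels were lowest in the 250 bp upstream of the TSS. On the domesticus allele the 489 positions of that bin averaged 15.4 ± 0.340% and the 39 positions from 1000 to 750 bp upstream averaged 51.4 ± 1.25%. On the castaneus allele the same bins held 456 and 88 positions, with 15.7 ± 0.416 and 44.7 ± 0.301%. The share in islands differed too, with 312 of the 489 and 8 of the 39 domesticus positions. Outside islands the bin just upstream had 40.1 ± 0.879 and 44.4 ± 1.19% and the farthest upstream bin 64.6 ± 1.55 and 66.7 ± 0.443%. Downstream, positions outside islands were between 38.8 and 54.7% on both alleles, and on the castaneus allele the lowest bin was the one from 500 to 750 bp downstream. Inside islands every bin was under 8% on both alleles.

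**Figure D3:**
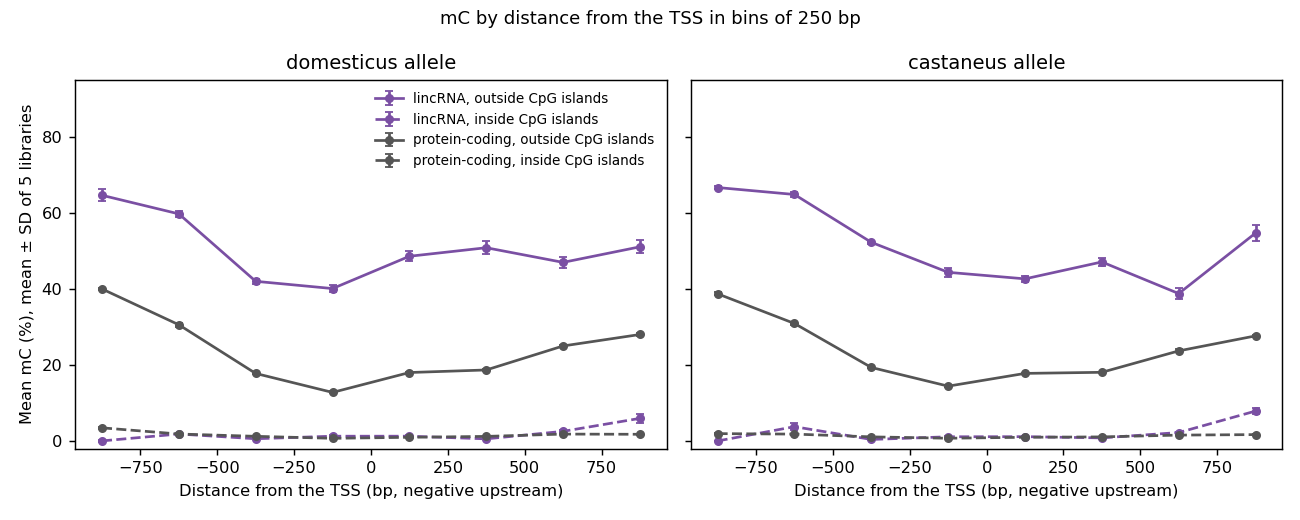
Mean mC (%) by distance from the nearest TSS in bins of 250 bp, with the SD over 5 libraries, for lincRNA (purple) and protein-coding (grey) promoters outside (solid) and inside (dashed) CpG islands. Outside islands the lincRNA line falls from 64.6 and 66.7% in the farthest upstream bin to 40.1 and 44.4% just upstream of the TSS, and it stays above the protein-coding line in every bin on both alleles.

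Reads that covered at least 3 calls of a promoter showed how methylation was laid out on single DNA fragments. In promoters under 5% mC the median share of wholly unmethylated reads was 98.1% on domesticus and 98.0% on castaneus. In promoters over 80% the median share of wholly methylated reads was 71 and 73.4%. In promoters between 20 and 80% the median share of mixed reads, with both methylated and unmethylated calls, was 53.9% over 31 promoters and 53.3% over 29. Such a read holds both states on 1 fragment of 1 allele.

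Of named lincRNAs, few were covered. From the 12 symbols of imprinted noncoding genes 3 are lincRNA genes of the annotation and 1 had positions. Meg3, expressed from the maternal chromosome and known for paternal promoter methylation, had no covered position at its first start. Its covered positions lay at a later start inside the gene. They were 5 exonic positions on the castaneus allele, which is paternal here. These had 84.2, 94.2 and 84.8% mC (control) and 96.6 and 92.7% (depleted), over 105 to 259 calls. The groups overlapped, and the exact permutation p was 0.3. The domesticus allele had 0 calls at these 5 positions, so the alleles could not be compared.

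The snoRNA hosts, 6 of 24 symbols in the annotation as lincRNAs and 4 of them covered, were low throughout. Snhg6 had 0.180% and Snhg12 0.0556% on the castaneus allele, and Snhg20 0.0696% on domesticus and 0.119% on castaneus. With Epb41l4aos above, all 4 were under 3% on each allele covered. All covered positions of Snhg6, Snhg12 and Snhg20 and 33 of the 35 of Epb41l4aos lay in CpG islands. Low mC was usual there: of lincRNA promoters wholly in islands, 51 of 59 (domesticus) and 57 of 62 (castaneus) were under 5%. Of the 8 microRNA hosts in the annotation 4 were covered. Mir17hg, which carries the miR-17-92 cluster, had 0.0900% over 14 castaneus positions, all in islands. Mir155hg had 4.10% over 21 domesticus and 5.22% over 12 castaneus positions. Mir9-3hg and Mir124a-1hg, hosts of neural microRNAs, had 1 position per allele and 1 castaneus position. The domesticus position of Mir9-3hg had 22.6, 23.7 and 32.4% (control) and 26.2 and 35% (depleted), which overlapped. Its castaneus position had 8.33, 0 and 27.5% and then 30.8 and 37.5%, which did not overlap, a difference of 22.2 points from 24 to 40 calls per library (exact permutation p = 0.2). At Mir124a-1hg 0 of 65 castaneus calls were methylated, which allows up to 4.62%. Intervals and limits of this kind cover counting error only.

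Of 10 developmental lincRNAs in the annotation 2 were covered. Dubr, which is needed for muscle differentiation, had 0.234 and 0.416%, and Miat 0.548% on the castaneus allele. All covered positions of Dubr and Miat lay in islands. Of 22 pluripotency lincRNAs only Platr22 was covered, with 2 domesticus positions at 2.02 ± 2.95% (SD, n = 5). All 5 of the broadly expressed lincRNAs in the annotation were covered, and their promoters were not alike. Malat1, a nuclear speckle RNA, had 0 of 299 methylated calls at its domesticus position, which allows up to 1.00%. Neat1, the RNA scaffold of paraspeckles, had 10.7, 16.3 and 13.1% (control) and 12.9 and 16.8% (depleted) over 6 domesticus positions, and 11.6, 10.7 and 6.19% and then 3.82 and 6.75% over 13 castaneus positions. The groups overlapped on both alleles, with differences of 1.5 and -4.23 points. On the 6 shared positions Neat1 had 14 ± 2.58% on domesticus and 16.8 ± 7.01% on castaneus. Trp53cor1, the p53-induced lincRNA-p21, had 2.25, 5.33 and 2.64% (control) and 6.82 and 16.6% (depleted) over 5 domesticus positions, which did not overlap (exact permutation p = 0.1, the smallest that 3 against 2 libraries allow). Its 2 castaneus positions had 10.6, 0 and 2.53% and then 5.70 and 7.10%, which overlapped (exact permutation p = 0.7).

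Pvt1, a lincRNA gene beside Myc, held promoters of opposite states on the domesticus allele. At the first start of Pvt1 0 of 2429 domesticus calls were methylated over 11 positions, which allows up to 0.124%, and the castaneus allele had 0.0932%. All 11 positions of the first start lay in islands. At an internal start the 6 positions lie in introns and none is in an island. Domesticus mC at this internal start was 97.3, 96.8 and 94.9% (control) and 94.4 and 98.4% (depleted). The castaneus allele had fewer than 3 positions there and was not tested. Its mean over all 13 Pvt1 positions, at both starts, was 13.9 ± 1.06% (SD, n = 5), above that of the first start alone. Lncpint, a p53 target, had 3.45 ± 0.141% over 32 domesticus positions of 1 merged window. The only castaneus position, in the same window, had 95.7 ± 3.22%. It was covered on domesticus only on the other strand of that CpG, which is 1 of the 32 positions, so the alleles were not compared.

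The mean level of lincRNA promoters was close on the alleles. Over the 1050 positions covered on both, mC was 22.1% on each allele, and castaneus minus domesticus was 0.0362 ± 0.220 points (SD, n = 5), with 2 of 5 libraries higher on castaneus and an exact two-sided sign-flip permutation p of 0.875. At 932 of the 1050 positions the alleles were within 10 points, and at 38 they were over 20 points apart. Most positions are near 0 on both alleles, and of the 403 over 5% on either allele 285 were within 10 points and 38 over 20 points apart. Across positions Pearson's r between the alleles was 0.974, a description over positions that share libraries. Yet single promoters differed. Of 129 promoters with at least 3 positions on both alleles, 13 passed an adjusted p of 0.05 in a quasi-binomial logistic model with limma moderation and Benjamini-Hochberg adjustment over all promoters, against 2.75% of the 5060 promoters tested. The count was 4 of 129 with the Female control libraries only, 5 of 69 with at least 5 positions and 5 of 39 with at least 40 calls. The shares of all promoters under these 3 settings were not kept, and the 2.75% is not their background. In the main setting, 12 of the 62 promoters over 5% mC on either allele passed, against 16% of 810, which is near the share of all such promoters. The castaneus allele was higher at 5 of the 129 (1.25% of all promoters) and the domesticus allele at 8 (1.5%), each in 5 of 5 libraries, and among the 62 at 4 (7.28%) and 8 (8.77%). With limma on log ratios of the calls 1 of 129 passed, beside 0.731% of all promoters and 3.95% of those over 5% mC.

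**Figure D4:**
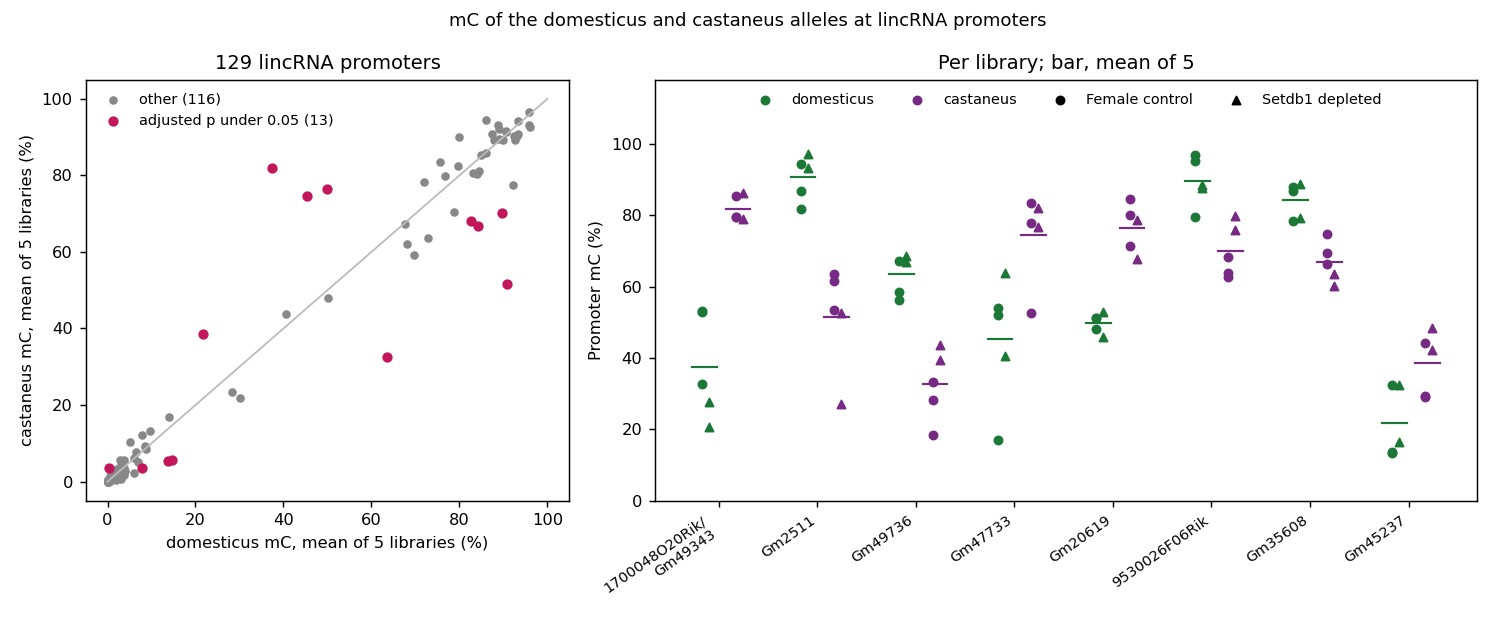
Left, castaneus against domesticus promoter mC (%), each the mean of 5 libraries, for 129 lincRNA promoters, with the 13 past an adjusted p of 0.05 in pink and the line of equality in grey. Right, the 8 with the largest differences in each library (circles, Female control; triangles, Setdb1 depleted; bars, means of 5): at 1700048O20Rik/Gm49343 every castaneus value is at or above 79.03% and every domesticus value at or below 53.3%.

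The largest difference was at 1700048O20Rik/Gm49343 on chromosome 9, where the starts of 2 lincRNA genes share a window and the 3 positions are exonic, 12830 bp from the TSS of Fam198a. The domesticus allele had 53.3, 52.9 and 32.7% (control) and 20.7 and 27.6% (depleted). The castaneus allele had 79.5, 85.3 and 79.6% and then 79.03 and 86.1%. No castaneus library was as low as any domesticus library, and the difference was 44.5 ± 14.8 points (adjusted p = 8.97e-09, quasi-binomial model). This was also the promoter that passed with limma (adjusted p = 0.0387).

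Gm47733 and Gm20619 were also higher on the castaneus allele. Gm47733 had 52.05, 53.9 and 17.1% (control) and 40.4 and 63.7% (depleted) on the domesticus allele, and 83.6, 77.9 and 52.7% and 76.7 and 81.9% on the castaneus allele. Control replicate 3 was the lowest on both alleles, and within each library castaneus was higher, by 29.1 ± 7.80 points in the mean (adjusted p = 1.02e-05, quasi-binomial model). Gm20619 had 48.01, 51.3, 51.3, 53.03 and 46% for domesticus and 84.5, 79.95, 71.4, 67.8 and 78.7% for castaneus in the same order of libraries. Its alleles did not overlap, and the difference was 26.5 ± 8.96 points (adjusted p = 1.12e-06, quasi-binomial model). Gm45237 differed by 17 ± 5.18 points (adjusted p = 0.0225, quasi-binomial model) with overlapping values. It did not pass without Female control replicate 2 or without either Setdb1 depleted replicate (adjusted p of 0.0571, 0.136 and 0.177, quasi-binomial model), and passed in 7 of 12 alternatives.

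The domesticus allele was higher at Gm2511, Gm49736, 9530026F06Rik and Gm35608. Gm2511 had 81.9, 86.8 and 94.3% (control) and 97.2 and 93.3% (depleted) on the domesticus allele, and 53.4, 63.4 and 61.5% and 52.6 and 27.2% on the castaneus allele. The lowest castaneus value was that of depleted replicate 2, and the difference was -39.1 ± 17.02 points (adjusted p = 3.33e-07, quasi-binomial model). With the Female control libraries only it was -28.2 points and did not pass (adjusted p = 0.0829, quasi-binomial model). Gm49736, whose 4 positions on both alleles are exonic, 9703 bp from the TSS of Bdh1, had 67.2, 56.1, 58.5, 67 and 68.7% for domesticus and 18.4, 33.2, 28.3, 39.6 and 43.8% for castaneus. Its difference of -30.9 ± 10.4 points passed (adjusted p = 1.17e-07, quasi-binomial model) and no libraries overlapped. The differences were -19.5 ± 10.6 points at 9530026F06Rik and -17.4 ± 6.82 points at Gm35608. At 9530026F06Rik it was -25.7 points in the control and -10.3 points in the depleted libraries, and neither promoter passed with the Female control libraries only (adjusted p of 0.153 and 0.245, quasi-binomial model).

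The 5 other promoters past the threshold had smaller differences, between 3.23 and -14.7 points. Gm47430 had 14.6 ± 2.01% on domesticus and 5.56 ± 1.52% on castaneus, without overlap, but with windows of 500 bp the difference was -4.79 points and did not pass (adjusted p = 0.719, quasi-binomial model), and it was -5.63 points with strands summed per CpG. Gm31138 and Gm32618, the only ones of the 13 with another place in the genome of at least 90% identity over at least 100 bp, had differences of -8.47 ± 6.33 and 3.23 ± 3.77 points. These calls were also lost, with differences of -4.51 points at Gm31138 with at least 40 calls, and of 1.55 points at Gm32618 without Setdb1 depleted replicate 2 and 1.44 points in controls only. Gm4211 differed by -4.26 points, but by -15.6 points with windows of 500 bp and by 0 with at least 40 calls, and passed in neither. Leaving out 1 library ended the call at Gm31138 (Female control replicate 2 or Setdb1 depleted replicate 1), at Gm32618 (either depleted replicate), at Gm29154 (control replicate 1 or 2, or depleted replicate 2) and at Gm4211 (control replicate 1 or 2, or either depleted replicate). Gm29154, with -14.7 points, passed in 10 of 15 alternatives, Gm31138 in 11 of 16, Gm32618 in 8 of 16 and Gm4211 in 6 of 16. Of the calls at the 13 promoters the castaneus allele held 31.4 to 74.3% per library, and the part of unequal allele assignment in the differences was not tested. Of the 13, 3 had any position in an island. Lying outside islands was common among methylated lincRNA promoters. On the domesticus allele 13 of 23 promoters between 5 and 20% mC held no island position. The same was true of 47 of 50 between 20 and 80% and of all 43 over 80%.

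Depletion of Setdb1 was not accompanied by a detectable difference in mean mC at lincRNA promoters. Depleted minus control was -0.119 points on the domesticus allele (exact two-sided permutation p = 0.9) and 0.227 points on the castaneus allele (exact permutation p = 0.5), and 3 against 2 libraries cannot go below 0.1. Neither sign held throughout: the domesticus value was 0.159 without Female control replicate 2, 0.0229 without Setdb1 depleted replicate 1 and 0.115 averaged over promoters, and the castaneus value was -0.152 with pooled calls. The change of the lincRNA minus protein-coding difference was -0.0266 points (exact permutation p = 1) and 0.307 points (exact permutation p = 0.3), and turned in sign under the same alternatives. Inside islands depleted minus control was -0.138 and -0.0812 points, and outside islands -0.0967 and 0.569 points, with overlapping libraries in each case. In the 93 domesticus promoters over 20% mC the median difference was -0.0860 points with quartiles of -2.86 and 2.88, beside a median of -0.246 over the 942 such promoters of all classes. In the 103 castaneus promoters over 20% it was 0.970 points, with quartiles of -2.48 and 4.39, beside -0.0397 over 933.

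By promoter, 0 of 207 domesticus and 0 of 226 castaneus promoters passed an adjusted p of 0.05 in the quasi-binomial model, and 0 passed with limma. These counts do not show that levels were alike, since with 3 against 2 libraries only large differences can pass. Of all promoters 0 and 0.0131% passed in the quasi-binomial model. At an unadjusted p under 0.05 there were 14 domesticus promoters, 10 lower and 4 higher in the depleted libraries, against 2.9% of the 7317 promoters tested (limma, 13 promoters against 5.59%). On the castaneus allele there were 13, 7 lower and 6 higher, against 2.62% of 7631 (limma, 13 promoters against 5.54%). These backgrounds are mostly promoters near 0, with a median mC of 0.320 and 0.299% beside 7.92 and 8.29% at lincRNA promoters. Shares among promoters of like mC were not computed for these p-value counts, so they show no excess at lincRNA promoters. Libraries of the groups did not overlap at 43 domesticus promoters, 29 of them lower in the depleted libraries, against 15.1% of all promoters, and at 42 castaneus promoters, 18 of them lower, against 15%. By direction, the background was 8.17% lower and 6.94% higher on the domesticus allele, and 7.61 and 7.35% on the castaneus allele. No background by direction was computed for promoters of like mC. Among promoters over 20% mC the libraries did not overlap at 17.2% of lincRNA and 20.8% of all promoters on the domesticus allele, and at 21.4 and 21.3% on the castaneus allele. By position 0 of 2030 and 0 of 2104 passed in the quasi-binomial model and in limma, with 43 on each allele at an unadjusted p under 0.05, against 1.99 and 2.06% of all positions (limma, 4.98 and 5.61% of lincRNA positions, against 5.23 and 5.18%).

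**Figure D5:**
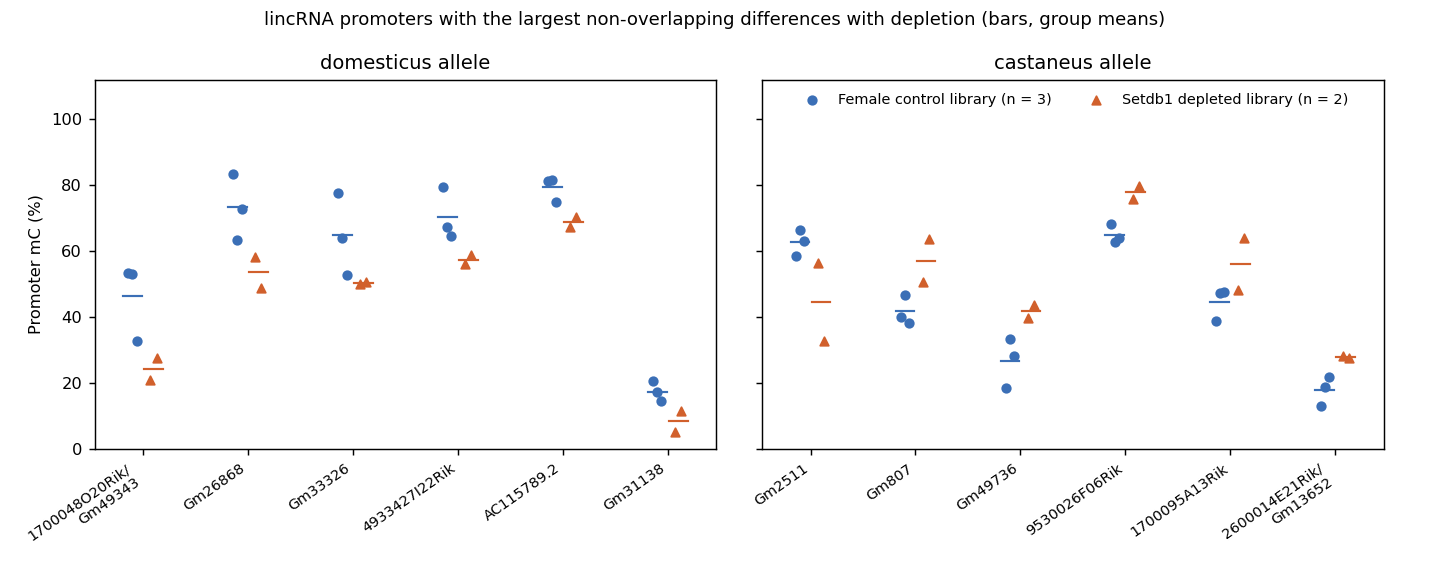
Promoter mC (%) in the 3 Female control (circles) and 2 Setdb1 depleted (triangles) libraries at the 6 lincRNA promoters per allele with the largest differences among those whose libraries do not overlap; bars are group means. All 6 domesticus promoters are lower in the depleted libraries, and of the 6 castaneus promoters only Gm2511 is; none passed the adjusted threshold.

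The promoters with the largest non-overlapping differences are given as values, since they were picked for size and none passed. On the domesticus allele all 6 were lower in the depleted libraries. 1700048O20Rik/Gm49343 led with the domesticus values above, a difference of -22.1 points (unadjusted p = 0.00548, adjusted p = 1, quasi-binomial model). Gm26868 had 83.5, 63.5 and 72.7% (control) and 58.2 and 48.8% (depleted), a difference of -19.7 points over 3 positions upstream of the gene. Gm33326, 4933427I22Rik, AC115789.2 and Gm31138 differed by -14.5, -13.1, -10.5 and -9.04 points. On the castaneus allele 1700048O20Rik/Gm49343 had a difference of 1.14 points, with overlapping libraries.

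On the castaneus allele 5 of the 6 were higher in the depleted libraries. Gm49736 had 18.4, 33.2 and 28.3% (control) and 39.6 and 43.8% (depleted) (difference 15.1 points, unadjusted p = 0.00480, adjusted p = 1, quasi-binomial model). Gm807 had 39.9, 46.8 and 38.2% and 50.7 and 63.6%, with as few as 56 calls in a library. 2600014E21Rik/Gm13652 had 12.9, 18.8 and 21.8% and 28.2 and 27.6% over 11 positions, of which 45.5% lay in islands. 9530026F06Rik and 1700095A13Rik differed by 12.9 and 12 points, and Gm2511 by -18.1 points. The change of the allele difference with depletion was tested as an interaction, and 0 of 129 promoters passed an adjusted p of 0.05 in the quasi-binomial model, with 4 at an unadjusted p under 0.05 against 1.72% of 5060 (4 of 62 and 5.31% among promoters over 5% mC). These were Gm2511, 1700048O20Rik/Gm49343, AC115789.2 and Gm42555, whose allele differences changed by -27.1, 23.3, 21.4 and 2.93 points.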

How the data were processed

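The 5 eRRBS libraries were 3 Female control and 2 Setdb1 depleted. Per the labels and the study's methods, reads were trimmed with Trim Galore, aligned by Bismark to mm10 masked at strain SNPs, sorted to the alleles with SNPsplit (C/T SNPs left out) and called with the methylation extractor (0.13.0); CASAVA 1.4 is named too. Removal of PCR duplicates is not given in the sources used here. The deposited files hold 1 call per read and cytosine, methylated or not, from which the methylated and total counts per position and library were made here. Reads with a Y mark in their names gave 5.34 to 5.66% of calls per library and allele and were kept. Without them 12 of 128 promoters passed between the alleles, and Gm4211 did not (adjusted p = 0.0757, quasi-binomial model).

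Promoters were merged windows of 1 kb around lincRNA TSSs with at least 3 positions of at least 10 calls. CpG islands were computed on GRCm38.p6 with at least 200 bp, a GC fraction of 0.5 and an observed to expected ratio of 0.6. Soft-masked repeat bases were not counted as C, G or CpG in finding islands, so CpG-dense repeats can lie outside them. The CpG density of promoters did count these bases. Counts were fitted with a quasi-binomial logistic model moderated by limma 3.58.1 in R 4.3.3, on all promoters or positions of the genome, with Benjamini-Hochberg adjustment and a threshold of 0.05; limma on log ratios (pseudocount 0.5) was the alternative. Mean levels were compared by exact permutation of libraries (10 labellings) and sign flips (32). The code was tested on simulated data. In these, most differences between the groups were not found, even large ones. The allele model also made some false calls, nearly all at promoters under 5% mC, so allele calls at such low levels are less certain. Copies of promoters elsewhere were sought with minimap2 2.31, and 35 of 289 had one. Named promoters were the 6 per allele with the largest non-overlapping group difference (at least 50 calls per library), the 8 with the largest allele difference past the threshold, the 6 with the most positions, the 3 highest and 3 lowest with at least 10 positions per allele, and members of 6 lists of lincRNA genes. The members and lists were chosen with earlier results of these data known. Depth limits precision: a position of 10 calls cannot resolve small differences.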

Additional observations from a re-analysis of the deposited data

Results flagged for a closer look

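The castaneus minus domesticus difference in mean mC at lincRNA promoters was -0.0373, -0.117 and -0.121 points in the Female control libraries and 0.0461 and 0.410 points in the Setdb1 depleted libraries. Every control library was below 0 and both depleted libraries were above it, and depleted minus control was 0.320 points. The exact two-sided permutation p was 0.1, the smallest that 3 against 2 libraries can give. In an alternative chosen after seeing the data, the value was 0.138 points without Setdb1 depleted replicate 2 and 0.501 points without Setdb1 depleted replicate 1. It was 0.0345 points inside CpG islands, where the groups overlapped, and 0.695 points outside them. At antisense RNA promoters the groups did not overlap in the other direction, with -0.683 points.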

How the results depend on the processing

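The lincRNA minus protein-coding difference kept its direction under all 15 alternatives on each allele. It ran from 9.91 points (at least 40 calls) to 33.1 points (mean over promoters) on domesticus and from 12 to 33.6 on castaneus. Without 1 library it was 18.8 to 19 and 20.6 to 20.7. The depletion difference turned on domesticus when averaged over promoters (0.115), and without 1 library it ran from -0.294 to 0.159, positive without Female control replicate 2 and without Setdb1 depleted replicate 1 (0.0229). On castaneus it was -0.152 with pooled calls and 0.0412 to 0.417 without 1 library. The change of the lincRNA minus protein-coding difference was 0.222 averaged over promoters and -0.173 to 0.224 without 1 library on domesticus (0.0811 without Setdb1 depleted replicate 1), and -0.0176 with pooled calls and 0.133 to 0.481 without 1 library on castaneus. Fisher's exact test was also run with the calls of each group summed, so that libraries have no spread. It called 28 of 207 domesticus and 26 of 226 castaneus promoters, and 52 of 2030 and 47 of 2104 positions. The shares of all promoters and positions that it called were not kept, so these counts have no background beside them. The allele difference turned without Setdb1 depleted replicate 2 (-0.0572; range -0.0572 to 0.0755), in controls only (-0.0916) and with at least 40 calls (-0.419). Against 13 of 129 promoters called between the alleles, limma called 1 and controls only 4 of 129. Leaving out 1 library gave 9 to 13. With at least 5 positions 5 of 69 passed, and with at least 40 calls 5 of 39. Apart from limma, the shares of all promoters under these alternatives were not kept. 1700048O20Rik/Gm49343 passed in 15 of 15 alternatives, and Gm20619, Gm47733 and Gm49736 failed only with limma. The cause of these changes was not tested.

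Deviations of same-numbered libraries from their group means had r from -0.0607 to 0.0463. Those of the depleted libraries were mirror images of each other, so whether the numbers pair libraries could not be decided. With a replicate block the depletion difference was -0.294 on domesticus and 0.145 on castaneus, the change against protein-coding promoters -0.173 and 0.259, and 0 promoters and 0 positions passed.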

Other observations

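Among promoters lying wholly in CpG islands, Gm16063 and Gm26739 stood out with intermediate mC on both alleles; they were singled out after their values were seen. Gm16063, 43808 bp from the nearest protein-coding TSS (Tbx3), had 58.7, 43.8 and 34.3% (control) and 50.9 and 62.9% (depleted) on domesticus, and 41.6, 45.8 and 38.1% and then 44.1 and 52.3% on castaneus. Mixed reads made up 70.4 ± 18.1% and 75.9 ± 3.73% of its reads with at least 3 calls. Gm26739, 9238 bp from the TSS of Gins2, averaged 28 ± 2.67% over 6 domesticus and 21.8 ± 6.58% over 3 castaneus positions, with 60.3 ± 6.09% and 49.2 ± 14.1% mixed reads.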
